A study of Rattus norvegicus with 4 samples.

Results

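Cytosolic ribosomal protein genes encode the proteins that, with ribosomal RNA, form the small (40S) and large (60S) subunits of the ribosome outside mitochondria. Members were taken by name alone: array probes for genes called Rps, Rpl, Rplp or Rpsa, with kinases of the Rps6k group left out. This gave 75 of the 35561 gene names on the array, measured by 112 of the 41012 probes and by 130 spots on each array. Of the 112 probes, 108 passed the filter on dim probes and 107 had enough values for a test, so that each of the 75 genes kept at least 1 tested probe.

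The ribosome translates mRNA, with decoding on the small subunit and peptide bond formation on the large one. Its proteins are made in nearly equal amounts in every cell, and their mRNAs are among the most abundant in growing epithelium such as the intestinal crypt. Many of these mRNAs begin with a run of pyrimidines, the 5′ terminal oligopyrimidine tract, through which mTOR signalling controls their translation, while Myc and RNA polymerases set how much ribosome is built.

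The tissue was colon mucosa of inbred F344 rats. All rats drank water with 5% dextran sodium sulphate (DSS) for 5 days to bring on colitis. DSS damages the colonic epithelium and serves as a model of ulcerative colitis. The treated rats had first been given resveratrol, a plant polyphenol, at 1 mg/kg/day for 20 days, and the control rats ate standard chow. Both groups received DSS, so no value here describes healthy mucosa. Each of 4 arrays (replicates 1 to 4) compared 2 of the 8 resveratrol rats, pooled and labelled with Cy5, with a pool of control RNA in Cy3. The labels do not say how many rats the pool held or whether it was the same on every array, and it was counted as 1 control sample. The test of a ratio against 0 therefore leaves out the spread among control rats. No array had the dyes exchanged, so a dye effect on a probe cannot be told apart from a treatment effect. Replicates 1 and 2 lay on slide 1, and replicates 3 and 4 on slide 2.

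Spots well above background made up 44.1% to 49.2% of each array in Cy5 and 42.8% to 57.1% in Cy3. The software flagged 3.45% and 4.68% of spots as outliers on replicates 1 and 2, and 11.0% and 13.7% on replicates 3 and 4. Ribosomal protein probes were bright, with a median log2 intensity over both channels of 12.69 against 9.03 for all tested probes. Their median GC content was 45%, as was that of all tested probes. Precision is limited by there being only 4 arrays.

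The probes below are printed because the results turn on them: probes of a single gene that gave unequal ratios, a near-identical pair, and the probes of genes that changed. All are 60 bases long, come from the scanner files and are written 5′ to 3′. Positions are those of the rn3 build in the files.

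For Rpl5, whose protein binds 5S ribosomal RNA, 3 probes lay on the minus strand at chr14:2402608-2402753, chr14:2401483-2402588 and chr14:2400673-2400732. The first and second cover more genome than their own length, as a probe across an intron does.
Rpl5 first probe: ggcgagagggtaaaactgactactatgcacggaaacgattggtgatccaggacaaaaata
Rpl5 second probe: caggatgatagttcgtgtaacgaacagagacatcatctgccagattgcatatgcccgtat
Rpl5 last probe: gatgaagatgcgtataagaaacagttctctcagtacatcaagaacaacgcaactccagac

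Rpl29, a small basic protein of the large subunit, had a pair of probes at chr8:111594629-111594688 and chr8:111594622-111594681 (plus strand) that overlap by 53 bases and differ at 3 of them, in capitals.
Rpl29 first probe: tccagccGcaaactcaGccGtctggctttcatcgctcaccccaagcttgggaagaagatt
Rpl29 second probe: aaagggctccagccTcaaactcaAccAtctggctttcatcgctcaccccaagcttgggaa

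The probes of 5 genes that passed the test on these arrays follow. They lie at chr12:36347780-36347839 for Rpl6, chr1:80255653-80255712 (plus strand) for Rps19, chr15:106060053-106060109 for Rps7, chr7:118351578-118352379 for Rpl3 and chr16:44849-44908 (plus strand) for Rps24, with Rpl6, Rps7 and Rpl3 on the minus strand. The capitals in Rpl6 mark the hexamer CACCTC.
Rpl6: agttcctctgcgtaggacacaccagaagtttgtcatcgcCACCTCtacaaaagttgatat
Rps19: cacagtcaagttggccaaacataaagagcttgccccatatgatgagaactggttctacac
Rps7: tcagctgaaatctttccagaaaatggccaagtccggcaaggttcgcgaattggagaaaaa
Rpl3: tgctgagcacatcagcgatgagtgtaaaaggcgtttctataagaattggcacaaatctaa
Rps24: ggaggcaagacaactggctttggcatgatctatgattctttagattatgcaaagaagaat

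Across the family, few ribosomal protein mRNAs were lower with resveratrol plus DSS. The share of higher ones was that of the array in the fit reported, but it changed with the processing. Of the 107 tested probes, 26 were higher (24.3%) and 3 were lower (2.8%), in limma's moderated test with Benjamini-Hochberg adjustment over all 18869 tested probes. Among all tested probes, 24.4% were higher and 22.7% lower. In this fit the share of higher members was thus that of the array as a whole, and the share of lower members was below it. With other processing the higher share of members ran from 1.14% on slide 2 alone to 86.9% with median centring. The shares of all tested probes were then 5.16% and 36.3%. Among the 1311 tested probes at least as bright as the median member, 25.1% were higher and 20.0% lower. By gene, each represented by its brightest tested probe, 18 of 75 were higher (24%) and 2 lower (2.67%), against 22.3% and 24.4% of all 16534 tested genes. The median log2 ratio of the tested members was 0.25, that of all tested probes was -0.02, and that of the other probes at least as bright as the median member was -0.33. On the 82 member probes with 4 values, 25 were above 0 on all 4 arrays (30.5%) and 2 below 0 on all (2.44%), against 37.7% and 26.0% of all such probes. The median of the members stayed above 0 in every processing tried except on slide 2 alone, where it was -0.07. Without replicate 2 it fell to 0.06, against 0.02 for all tested probes.

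**Figure D1:**
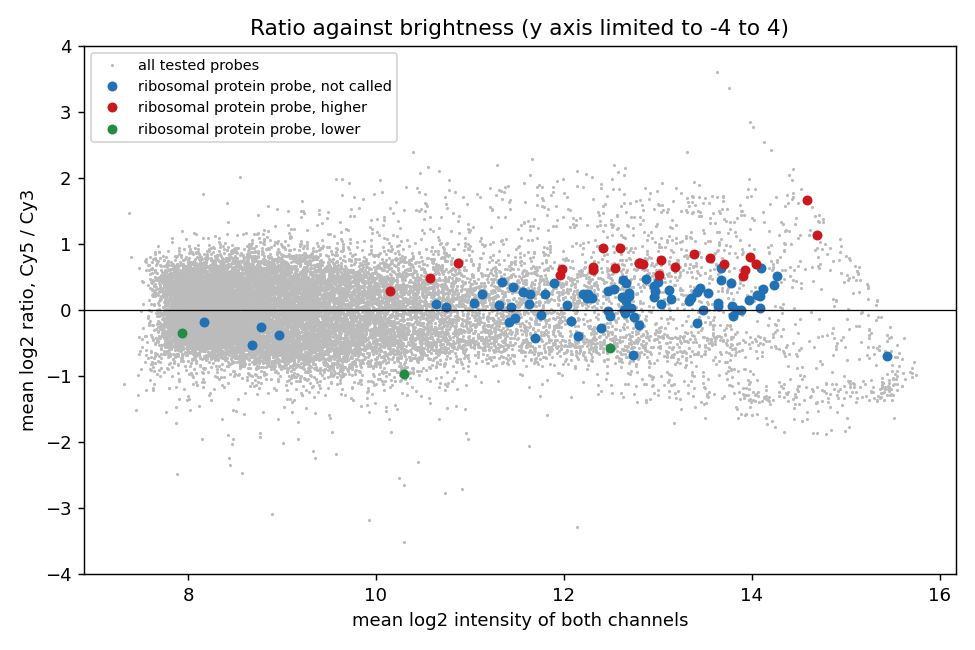
Mean log2 ratio (Cy5 over Cy3, y axis) of each tested probe against its mean log2 intensity over both channels (x axis). Grey points are all tested probes, and coloured points are ribosomal protein probes by their call. Most ribosomal protein probes sit at the bright end, around a median of 12.69, and most lie above 0.

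The 4 arrays did not give the same picture. The median log2 ratio of the members was 0.37 on replicate 1 and 0.67 on replicate 2, against -0.11 on replicate 3 and 0.00 on replicate 4. Members above 0 numbered 76 of 102 on replicate 1 and 99 of 105 on replicate 2, but 35 of 95 on replicate 3 and 48 of 95 on replicate 4. With loess and outlier spots left out, both arrays of slide 1 were therefore high and both arrays of slide 2 near or below 0. This split depended on the normalization. With median centring the member medians were 1.11, 0.94, 0.80 and 0.56 on replicates 1 to 4 (0.36, 0.17, 0.07 and 0.27 for all tested probes), above 0 on every array. With outlier spots kept they were 0.60, 0.81, 1.81 and 0.67, with replicate 3 the highest. All tested probes then had medians of 0.03, 0.01, -0.01 and 0.00. With loess and outlier spots left out, the medians of all tested probes were also close to 0, at 0.04, 0.04, -0.06 and 0.01. In that fit the medians of the other equally bright probes were -0.13, -0.07, -0.64 and 0.07. On replicate 3 the bright probes as a whole were thus low in that fit.

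Fitted on slide 1 alone, 71 of 100 members were higher (71%) and 2 lower, with 33.3% and 25.5% of all tested probes. On slide 2 alone, 1 of 88 was higher (1.14%) and 2 lower, with 5.16% and 6.92%. With the same loess values, the difference between slides was then tested itself, as a coefficient in limma over the 14200 probes with 4 values. No probe passed after adjustment (0.0% in each direction). At an unadjusted p under 0.05, 2041 of all probes (14.4%) and 44 of 82 members (53.7%) were lower on slide 2, and 235 of all probes and 0 members were higher there. The median of slide 2 minus slide 1 was -0.54 for members and -0.16 for all probes, and 77 of the 82 members (93.9%) had the lower mean on slide 2, against 71.6% of all probes. The slides hold different rats and were scanned separately, so rat and slide cannot be told apart.

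**Figure D2:**
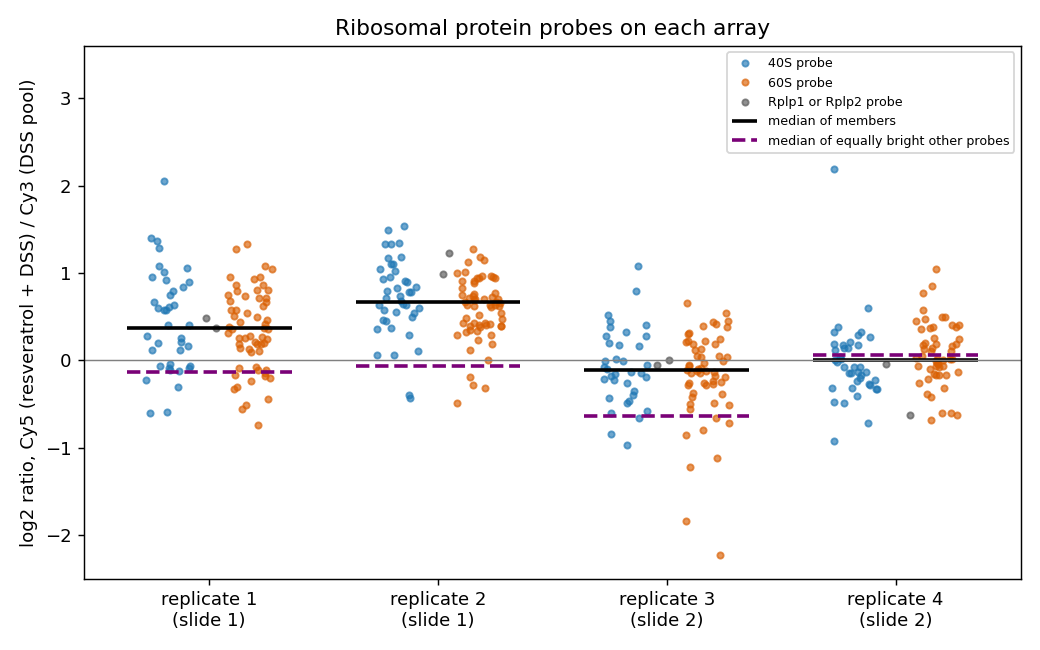
Log2 ratio (y axis) of each tested ribosomal protein probe on each array (x axis), by subunit. Black lines are the medians of all members, 0.37, 0.67, -0.11 and 0.00, and dashed lines are the medians of other probes at least as bright as the median member; both slide 1 arrays sit above both slide 2 arrays.

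The subunits are given side by side, and their difference was not tested. Of the 42 tested 40S probes 10 were higher and 2 lower, with a median of 0.23, and of the 63 tested 60S probes 16 were higher and 1 lower, with a median of 0.25. The higher shares, 23.8% and 25.4%, lay near the 24.4% of all tested probes. On the 4 arrays the 40S medians were 0.41, 0.73, -0.11 and -0.08, and the 60S medians were 0.36, 0.63, -0.12 and 0.03. The acidic stalk proteins, which recruit elongation factors, had 2 tested probes and neither was called. Rplp1 gave 0.36, 1.23, -0.06 and -0.05 on replicates 1 to 4, highest on replicate 2. Its probe was printed as 10 spots per array, and the SD between unflagged spots of an array was 0.04 to 0.13, which covers spot-to-spot error only and not that of labelling, arrays or rats. Rplp2 gave 0.49, 0.98, 0.01 and -0.62, again with slide 1 above slide 2.

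Among small subunit genes, Rps15, a protein of the subunit head, had the highest ratio of the family. It read 2.05, 1.34, 1.08 and 2.19, all far above 0, and its Cy5 signal was saturated on every array. A saturated signal can only be a bound, so Rps15 was at least 3.17-fold higher (adjusted p = 0.00496; mean log2 signal 15.40 in Cy5 and 13.73 in Cy3). Rps3, which lines the mRNA entry channel, read 0.95 and 0.73 on slide 1 and was outlier-flagged on both slide 2 arrays, so its mean of 0.84 ± 0.14 (moderated SE; adjusted p = 0.0169) rests on slide 1 alone. The value after ± is the moderated SE throughout.

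Rps7, which also takes part in assembly of the small subunit, had the smallest SE of the probes printed above, with 0.80, 0.91, 0.52 and 0.60 and a mean of 0.71 ± 0.10 (adjusted p = 0.00596). Rps19, a protein mutated in Diamond-Blackfan anaemia, read 1.07 and 1.05 on slide 1 but 0.38 and 0.33 on slide 2 (0.71 ± 0.16; adjusted p = 0.0192). Rps2, in the wall of the mRNA entry channel, was covered by 4 probes whose means were 0.80, 0.78, 0.70 and 0.48, and 3 of them passed. Its brightest probe read 0.91, 1.33, 0.28 and 0.28, so all arrays lay above 0 with slide 1 above slide 2.

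Rps28 had 0.75, 1.49, 0.41 and 0.14, with replicate 2 apart from the rest (0.70 ± 0.22; adjusted p = 0.0422).

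Rps24, the only 40S gene lower by its brightest probe, read -0.59, 0.06, -0.85 and -0.92. Replicate 2 was near 0 and the other arrays were low, for a mean of -0.58 ± 0.17 (adjusted p = 0.0386). With median centring in place of loess the mean was 0.06, and with outlier spots kept 0.15, so its direction depended on the normalization.

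Several well-known small subunit proteins did not pass. Rps6, the substrate of S6 kinase, read 0.25, 0.84, -0.21 and -0.01 (0.22 ± 0.18; adjusted p = 0.331). Rps14 read 0.84 and 0.60 on slide 1 against -0.49 and -0.28 on slide 2, so the slides lay on opposite sides of 0 (0.17 ± 0.24; adjusted p = 0.578). Rps27a, made as a fusion with ubiquitin, had a mean of 0.01 ± 0.22, with -0.30, 0.79, -0.58 and 0.12. Rpsa, once described as a laminin receptor, had probes at 0.25 and 0.34, and neither passed. Rps3a, not called either, was among the 5 lowest genes at -0.42 ± 0.19 (0.11, -0.66 and -0.71 on replicates 2 to 4).

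Among large subunit genes, Rpl41, a peptide at the boundary between the subunits, read 1.27, 1.27 and 0.85 on replicates 1, 2 and 4 and was outlier-flagged on replicate 3. Its mean was 1.13 ± 0.13 (adjusted p = 0.00582), with Cy5 saturated on replicates 1 and 2. Rpl6 read 1.33, 0.96, 0.44 and 1.04, above 0 on all arrays (0.95 ± 0.15; adjusted p = 0.00771). Its probe carries CACCTC, as marked above. On the probe strand CACCTC or ACCTCA, which overlap by 5 bases, stood in 4.67% of tested member probes and in 3.81% of all tested probes. Of all tested probes with either hexamer, 38.3% were higher and 16.7% lower, against 24.4% and 22.7% of all tested probes. The hexamers had been chosen earlier, after these same data were seen, so these shares are only a description. Of the 5 such member probes 2 were higher, and of the 102 others 24 were higher and 3 lower.

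Rpl5, which with Rpl11 forms a particle on 5S RNA that can bind Mdm2, was called by its brightest probe alone. The first probe read 0.75, 0.91 and 0.47 on replicates 1, 2 and 4 (0.71 ± 0.12; adjusted p = 0.0129). The second read 0.26, 0.32, -0.18 and -0.07, and the last -0.51, 0.24, -0.72 and -0.60, with means of 0.08 and -0.40 that did not pass. The 3 Rpl5 probes thus spanned 1.11 on the log2 scale, the widest range of any gene with several tested probes. Rpl11 read -0.08, 0.29, -0.56 and -0.01 and did not pass (adjusted p = 0.612). With median centring it was called higher at 0.54, and with outlier spots kept at 0.64.

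Rpl3, at the peptidyl transferase centre, read 0.93, 0.72, 0.38 and 0.49 (0.63 ± 0.11; adjusted p = 0.0104), with all arrays above 0. Its paralog Rpl3l, which is best known from heart and skeletal muscle, went the other way at -0.55, -0.49 and -1.84 on replicates 1 to 3. Replicate 3 was far below the others and replicate 4 was outlier-flagged, and the mean was -0.96 ± 0.29 (adjusted p = 0.0464). Without replicate 1, 2 or 4 this call was lost, and without replicate 3 the mean was -0.52.

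Rpl36 read 0.87, 1.13, 0.65 and 0.37, positive throughout (0.75 ± 0.14; adjusted p = 0.0103). Rpl15, Rpl28, Rpl24, Rpl8 and Rpl37 had means of 0.65, 0.64, 0.61, 0.61 and 0.52. In each of these 5 genes both slide 1 values of the brightest probe exceeded both slide 2 values. Rpl15 and Rpl37 each also had a dimmer tested probe, with means of -0.18 and -0.38, that did not pass. By the median of a gene's probes both lost their call, at 0.24 and 0.16 (adjusted p = 0.112 and 0.334 in limma). So did Rpl5, at 0.01 (adjusted p = 0.938 in limma). Rpl22, an RNA-binding protein dispensable for most translation, changed little but evenly, with 0.14, 0.35, 0.22 and 0.45 (0.29 ± 0.09; adjusted p = 0.0423). Its slide 1 and slide 2 values overlapped.

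Replicates 1 and 2 carried most of these calls. Of the 26 higher probes, 23 could be tested without replicate 1 and 9 of them remained higher, and the same counts, 23 and 9, held without replicate 2. All 26 remained higher without replicate 3, and 24 without replicate 4. Calls also fell over the whole array, where 24.4% of all tested probes were higher in the fit reported. Without replicates 1, 2, 3 and 4 in turn, 12%, 12.1%, 25.5% and 21% of all tested probes were higher. For members these shares were 8.82%, 8.91%, 35.8% and 26.2%. By brightest probe, Rps15, Rpl41, Rpl6, Rpl36, Rps7 and Rpl3 remained higher whichever array was left out, with an adjusted p of at most 0.0497. Rps3 could be tested in only 2 of these 4 fits. Calls for Rpl5, Rps19, Rps2, Rps28, Rpl15, Rpl28, Rpl24 and Rpl8 were lost without replicate 1 and also without replicate 2, with means no lower than 0.43. Those for Rpl37 and Rpl22 were lost without replicate 1, 2 or 4 (means no lower than 0.37 and 0.23), and that for Rps24 without replicate 1, 3 or 4 (means of -0.46 or below). With the slide as a random block, 22 of the 26 remained higher. Rps28, Rpl37 and Rpl22 (adjusted p = 0.0559, 0.052 and 0.0724) and the called Rpl26 probe lost their calls, as did Rps24 (adjusted p = 0.0537).

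**Figure D3:**
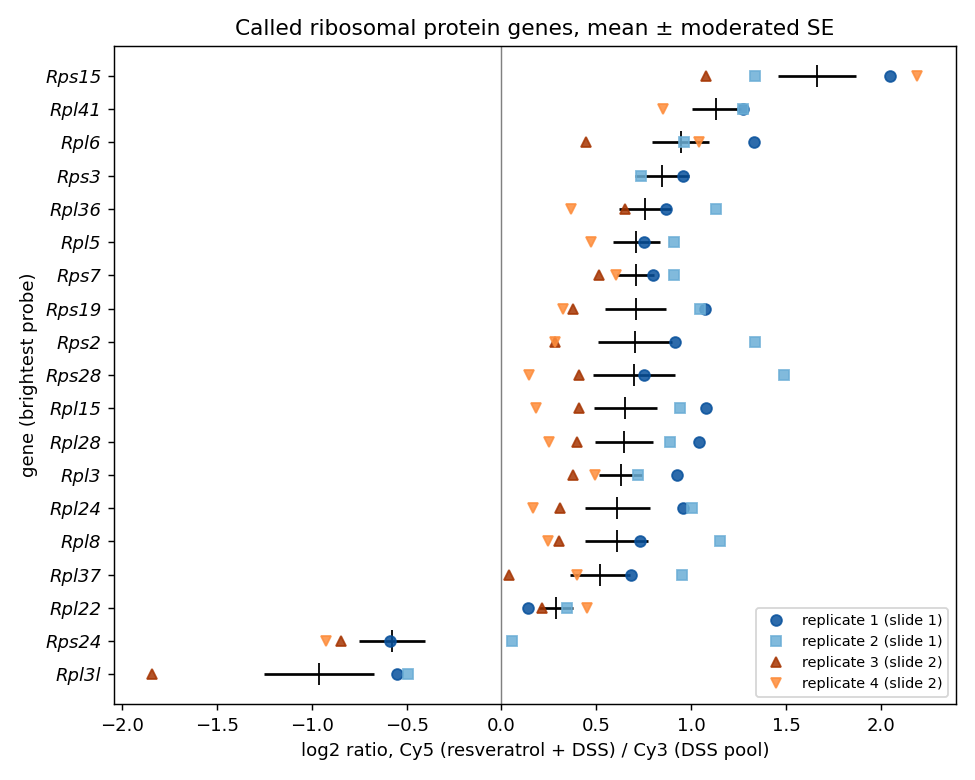
Log2 ratio (x axis) of 19 of the 20 ribosomal protein genes that passed the test by their brightest probe (y axis), with 1 symbol per array, and the mean with its moderated SE in black. Slide 1 symbols lie to the right of slide 2 symbols for most of the 17 higher genes shown; Rps15 is saturated in Cy5 on all arrays, so its points are bounds.

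Rpl7a, the brightest member, read -0.07, 0.18 and -2.23 on replicates 1 to 3. On replicate 4 both of its channels were saturated, so that array gives no usable ratio. Its mean did not pass with the saturated spot (adjusted p = 0.169) or without it (-0.65; adjusted p = 0.338), and replicate 3 lay far below the others. Rpl37a read -0.17, -0.28 and -1.12 on replicates 1 to 3 with a dim probe (mean log2 intensity 8.68) and did not pass (adjusted p = 0.0913). Rpl4, which lines the peptide exit tunnel, read 0.71, 0.94, 0.22 and -0.16, and Rpl13a, also known as a regulator of inflammatory mRNA translation, read 0.10, 0.65, -0.27 and 0.13. Neither passed, at adjusted p = 0.103 and 0.428.

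A gene's probes often disagreed. Of the 22 genes with more than 1 tested probe, 11 had some probes called and others not, 11 had none called and 0 had all called. The highest and lowest probe differed by a median of 0.40, and in 8 genes the probes had opposite signs. Among these was Rpl37, whose dimmer probe was placed on the minus strand, while its brighter probe and the gene lie on the plus strand. That dimmer probe may therefore not read the same transcript. No gene had probes called in opposite directions. The near-identical Rpl29 pair gave 0.51, 0.52, 0.13 and -0.16 for the first probe and 0.81, 0.40 and -0.26 on replicates 1 to 3 for the second. Their means, 0.25 and 0.32, differed by less than either SE. Genes called only by a probe other than the brightest were Rpl10, Rps20, Rpl21, Rpl26, Rpl27 and Rpl18, singled out here after their values were seen. The called Rpl26 and Rpl18 probes had values on replicates 1 and 2 only, so these calls rest on slide 1 alone. The brighter probes of Rpl26 and Rpl18, with 4 values each, had means of 0.01 and 0.03. Rpl10, which acts in subunit joining, read 0.95, 0.83, 0.44 and 0.57 by its called probe and 0.50, 0.94, 0.05 and 0.19 by the brighter one. The called Rps20 probe had a mean of 0.93 ± 0.17 and the brighter one 0.00 ± 0.18. One of 5 Rpl21 probes had the smallest SE of the 107 members, at 0.46, 0.42, 0.54 and 0.50 (0.48 ± 0.08; adjusted p = 0.00796), while the other 4 had means from -0.22 to 0.36.

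**Figure D4:**
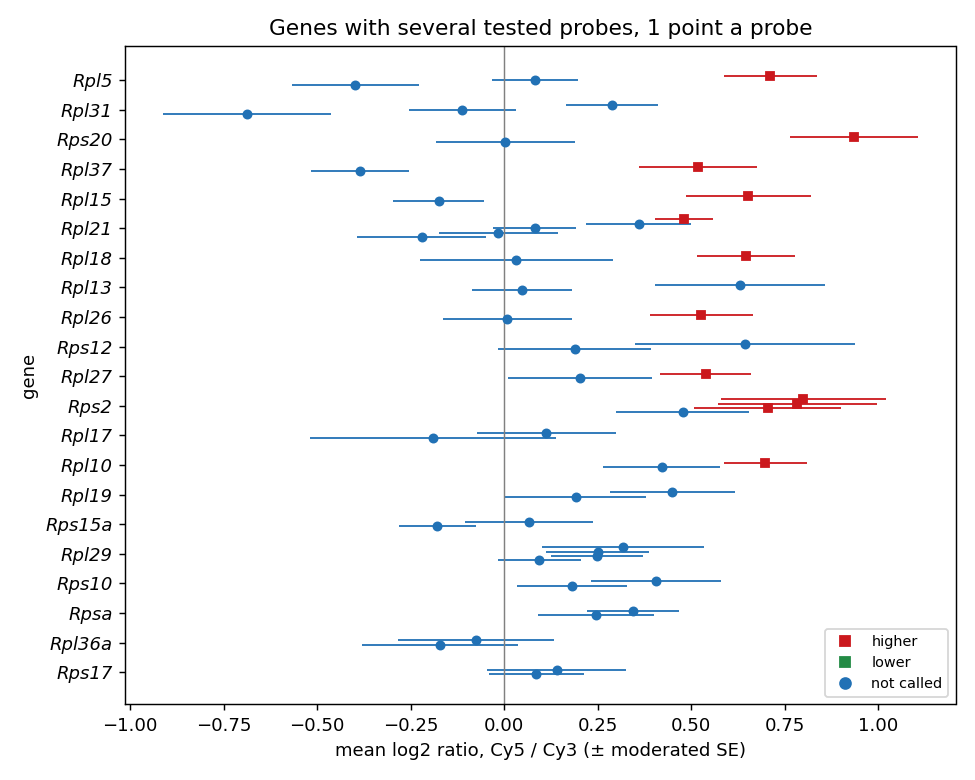
Mean log2 ratio (x axis, with moderated SE) of every tested probe of 21 of the 22 genes with more than 1 tested probe (y axis, ordered by range). Squares passed the test and circles did not; the widest range, 1.11, is that of Rpl5.

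Dim probes are given apart, by a limit set after the values were seen. Of the 5 tested members under a mean log2 intensity of 10, 1 was lower and 0 higher, with a median of -0.35. The minus-strand Rpl37 probe was among the 5 and was not called. Ribosomal protein genes have many near-identical processed copies in the genome. Of 89 member probes with both a position in the files and a RefSeq promoter for their gene, 15 were not placed on the gene's own chromosome. For example, the Rps7 probe lay on chromosome 15 of rn3 for a gene on chromosome 6 of GRCr8. The Rpl36 probe lay on rn3 sequence not assigned to a chromosome. Of the 15 probes 14 were tested, and 3 of those, Rpl36 included, were higher and 0 lower. On the gene's own chromosome 18 of 72 tested probes were higher and 2 lower. Signal from other copies was not tested.

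Flags fell mainly on slide 2. All spots of 6 and 3 member probes were outlier-flagged on replicates 1 and 2, and 13 on each of replicates 3 and 4. Rpl35a had a bright probe lost on all 4 arrays this way. In Cy5, 2, 2, 1 and 2 member probes were saturated on replicates 1 to 4, and in Cy3 0, 0, 0 and 1. With saturated spots left out, 17 member probes were higher (16.2%) and 3 lower (2.86%), against 23.5% and 21.9% of all tested probes. Of the 26 probes higher in the fit reported, 24 could still be tested and 17 remained higher. Saturated spots were left out of the loess curve too, so ratios of other probes also changed. The brighter Rpl37 probe, saturated on no array, went from 0.52 to 0.43.

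The count for the family depended on the normalization. With median centring in place of loess, 93 of 107 members were higher and 1 lower (86.9% and 0.935%, against 36.3% and 9.75% of all tested probes), at a median of 0.84. That scaling moved the median of all tested probes to 0.20, so the members stood 0.64 above it, against 0.27 with loess. Under median centring 78.8% of all calls were higher, against 51.7% with loess. With outlier spots kept, 90 of 108 members were higher and 4 lower (83.3% and 3.7%, against 33.7% and 30.6% of all tested probes), and the member median on replicate 3 went from -0.11 to 1.81. In the authors' deposited table the member medians were 0.18, 0.49, 0.37 and -0.20 on replicates 1 to 4. Replicate 3 was therefore on the other side of 0 from the loess values, and 24 members were higher and 6 lower (22.9% and 5.71%, against 27.6% and 29.6% of all tested probes).

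**Figure D5:**
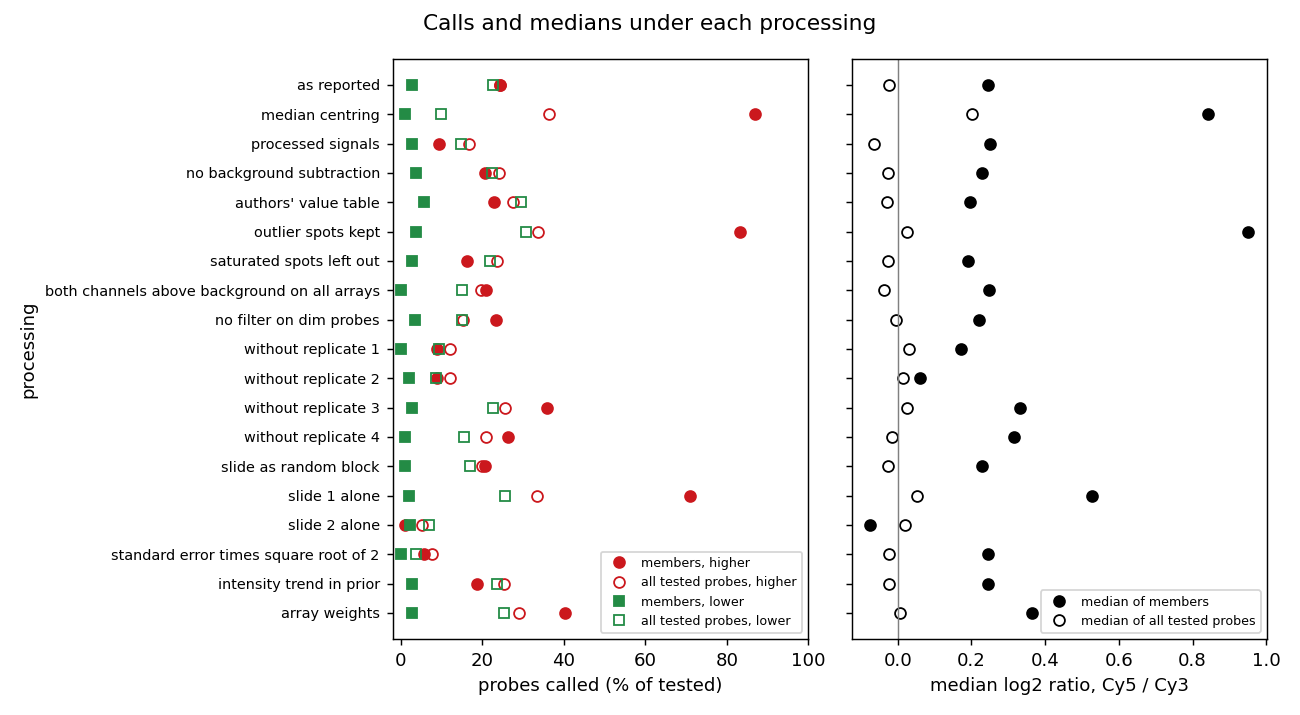
Left, the share of tested ribosomal protein probes (filled) and of all tested probes (open) called higher or lower (x axis, percent) under each processing (y axis). Right, the median log2 ratio of the same probes; the member median runs from -0.07 on slide 2 alone to 0.95 with outlier spots kept.

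Many ribosomal protein genes share the start of their transcript. In the RefSeq promoter table (assembly GRCr8), 60 of the 75 genes had an entry, and in 23 (38.3%) the first transcribed base was C followed by at least 4 bases that are each C or T on the gene's strand, against 2.63% of all 33469 promoters. Only the gene's strand was searched, as the feature is fixed to the start. The windows below run from 10 bases before the start to 20 bases from it. They are given for the 4 genes of highest ratio with this start and for Rps24, a lower gene. Rps24 does not meet the rule because its annotated first base is T, although that base opens a pyrimidine run of 9 bases. The rule depends on the annotated first base, so a gene counted without such a start may still have one. Capitals mark the pyrimidine run from the first base on. Positions are chr7:10068096-10068125 (minus), chr6:50999426-50999455 (minus), chr1:78083513-78083542 (minus), chr2:55942935-55942964 (plus) and chr16:96507-96536 (plus), in the order listed.
Rps15: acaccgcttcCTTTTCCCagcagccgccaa
Rps7: agagctgtgtCTCTTTCTaagccggcactc
Rpl28: cccctagtgtCTTTCTTTCCgtctccggcc
Rpl37: ggcgtactttCTCTTCCggtctctttggcc
Rps24: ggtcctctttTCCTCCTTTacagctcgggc

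Of the 23 genes with such an annotated start, 5 were higher and 0 lower, at a median of 0.26. Of the 37 without it, 10 were higher and 2 lower, at a median of 0.32. Among all tested genes 22.3% were higher and 24.4% lower.

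Ribosomal proteins whose names fall outside the pattern were read from a list. Of 4 tested, 2 were higher and 0 lower, at a median of 0.54, against 22.3% and 24.4% of all tested genes. Fau, a fusion of a ubiquitin-like protein with a 40S protein, read 0.85 and 1.08 on slide 1 and was flagged on slide 2 (0.96 ± 0.14; adjusted p = 0.0133). Gnb2l1, the ribosome-bound scaffold also called Rack1, read 1.13, 0.86, 0.45 and 0.20 (0.66 ± 0.16; adjusted p = 0.0232). Arbp, the older name of the stalk base Rplp0, read 0.90, 0.67, 0.27 and -0.19 and did not pass.

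Of 26 tested genes for ribosome assembly and ribosomal RNA synthesis, 6 were higher and 0 lower, at a median of 0.27. The higher share, 23.1%, was near the 22.3% of all tested genes, of which 24.4% were lower. Nola2, a protein of pseudouridylation complexes, had a mean of 0.72 ± 0.21, nucleolin (Ncl) 0.68 ± 0.19 on 3 arrays, Rrs1, a 60S assembly factor, 0.59 ± 0.10 and Noc4l, a 40S assembly factor, 0.57 ± 0.15. Rrs1 was even, at 0.73, 0.66, 0.64 and 0.34.

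Of 22 tested genes of the mTOR, S6 kinase and Myc list, 10 were higher (45.5%) and 0 lower, at a median of 0.27. The shares were 22.3% higher and 24.4% lower for all tested genes. Myc, which drives ribosome production, read 2.32, 1.59, 1.35 and 2.25 (1.87 ± 0.18; adjusted p = 0.00409), all far above 0, with a hexamer in its probe. Eif4ebp2, a translation repressor that mTOR inactivates, was higher at 0.79 ± 0.10, and Rps6ka4, a kinase, at 0.72 ± 0.16. Larp1, the protein that binds the terminal pyrimidine tract, was also higher, at 0.66 ± 0.09. The members of these lists, like the family itself, were chosen with results already known, so their counts are a description.

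Markers of cell types are to be read beside all tested genes, of which 22.3% were higher and 24.4% lower. Of 7 tested epithelial markers 2 were higher and 0 lower, with list medians of 0.70, 0.85, -0.18 and 0.54 on replicates 1 to 4. Proliferation markers had 1 of 13 higher, at a median of 0.09. Leukocyte markers had 5 of 7 lower (median -0.75), fibroblast markers 5 of 6 (-1.18), smooth muscle markers 1 of 3 (-1.40), erythrocyte markers 2 of 2 (-1.65) and pancreas markers 2 of 2 (-3.70). On replicates 1 to 4 the list medians were -0.36, -0.38, -1.76 and -3.70 for smooth muscle and -1.57, -1.52, -2.81 and -2.92 for erythrocytes, so both were lower on slide 2, as the ribosomal members were. The slide 2 erythrocyte values come from Hbb alone, which read -2.45 and -2.40 on slide 1. Myh11 had no value on replicate 4, so the smooth muscle median there comes from Tagln and Des only. On replicate 3 these read -2.53 and -1.48, and on replicate 4 -4.20 and -3.19. The epithelial medians also rest on different genes, as Cdx2, Krt20 and Lgals4 lacked values on some arrays. Leukocyte medians were -0.42, -0.66, -0.86 and -0.74, fibroblast medians -1.14, -1.12, -1.44 and -1.53, proliferation medians 0.18, 0.17, 0.13 and -0.18, and pancreas medians -4.15, -3.76, -3.37 and -3.53. In such bulk RNA, fewer cells of a type and less RNA per cell cannot be told apart, and the part of cell makeup in the ribosomal protein ratios, or in their slide difference, was not tested.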

How the data were processed

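Members, gene lists and the hexamers were chosen with earlier results of these data known. Per the file headers, intensity values of spots (mean signals, local background medians) were deposited as read by version 9.5.3.1 of Agilent's Feature Extraction, and the submitters' processing notes also name limma. The authors' deposited value table holds log2 ratios whose direction (Cy5 over Cy3) and scale follow the scanner files, with column medians of -0.01, -0.01, 0.09 and -0.02; its centring is not stated. It served as an alternative.

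In limma 3.58.1 (R 4.3.3), background was corrected by normexp (offset 50) and ratios normalized within arrays by loess. Weight 0 was given to 1639 control spots of 45018 and to spots flagged as outliers, and a probe's spots were averaged. A probe was tested where 3 or more arrays had a channel well above background and 2 or more had a value (18869 probes), with lmFit and eBayes against 0, two-sided, with Benjamini-Hochberg adjustment at 0.05. Replicate numbers follow accession order and only name arrays. Resveratrol rats were pooled by 2, so p-values measure the spread between these pools. Bounds used per-channel values after Aquantile normalization. The fit was tested on simulated data.

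Members named were: genes past the threshold by their brightest probe with an absolute log2 ratio of at least 0.5, up to 20; the 5 lowest genes; genes with probes called in opposite directions; probes saturated on all 4 arrays; 15 anchors; and up to 4 called genes per other list of ribosome genes. Larp1, added after its value was seen, and the probes named as such in the text are exceptions. Some genes that this rule takes are not reported here. Rplp0 is present as Arbp only. Gene names are those of the files. Probe sequences come from the files and promoters from RefSeq (GRCr8). A planned check that probes lie in coding sequence was not run. Alternatives included other background corrections, normalizations, filters, priors, left-out arrays, the slide as a block and the standard error times the square root of 2; the test between slides was chosen after seeing the data.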

Additional observations from a re-analysis of the deposited data

How the results depend on the processing

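Higher member probes numbered 93 with median centring, 10 with the scanner's processed signals, 90 with outlier spots kept, 17 with saturated spots left out, 71 on slide 1 alone, 1 on slide 2 alone, 6 with the standard error times the square root of 2 and 43 with array weights, and 9 to 38 with 1 array left out (9 without replicate 1 and 9 without replicate 2). Lower member probes numbered 1 with median centring, 6 in the authors' deposited table, 0 with both channels above background on all arrays, 1 with the slide as a random block, 0 with the wider standard error, and 0 to 3 with 1 array left out (0 without replicate 1 and 1 without replicate 4). Beside those 0 lower probes in limma, 3 were lower in the fit reported. The member median was 0.84 with median centring. It was 0.95 where outlier spots were kept, 0.06 without replicate 2 (0.06 to 0.33 with 1 array left out) and -0.07 on slide 2 alone. Among all tested probes, higher ones numbered 2584 with both channels above background, 747 on slide 2 alone and 1456 with the wider standard error, and 1946 to 4751 with 1 array left out. Lower ones numbered 1839 with median centring, 2795 with processed signals, 1967 with both channels above background, 1002 on slide 2 alone and 724 with the wider standard error, and 1426 to 4213 with 1 array left out. Rpl11 went from -0.09 to 0.54 and Rps24 from -0.58 to 0.056 with median centring, and to 0.64 and 0.15 with outlier spots kept. The cause was not tested. With the median of a gene's probes in place of its brightest, 16 member genes were higher and 2 lower. Rpl6 passed in all alternatives but slide 2 alone. Rpl41 and Rps15 passed where they could be tested, but neither had a test with saturated spots left out or in the authors' deposited table, and Rpl41 had none on slide 2 alone. Each ratio compared treated and control RNA on the same array. No further pairing between arrays was used, because all arrays belong to 1 group. Saturation limits the value of Rps15.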
